A study of Mus musculus with 194 samples.

Results

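L1210 cells collected 7.5 h or more after their last division (late cells) were compared with L1210 cells collected 4.0 to 7.0 h after it (mid cells). L1210 is a mouse lymphocytic leukemia line derived from a DBA subline 212 mouse, and it divides in culture without added stimulation. Cells descended from single founding cells over 2 generations of growth in a microfluidic device in standard medium with serum and antibiotics, with no other treatment in either group, and each released cell gave 1 Smart-Seq2 library, a method that primes on poly(A) tails and amplifies full-length cDNA. Members were chosen by the time on the label, by the absence of a doublet label and by 1000 or more genes above 0 TPM (transcript abundance corrected for length, which sums to 1000000 in a library). Of 194 libraries in the series, 88 were L1210, and 22 late and 22 mid cells passed, after 2 libraries of each group with fewer genes were left out. The remaining 37 early L1210 cells, collected 0.354 to 3.94 h after division, are given as levels only.

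Sister and cousin labels placed the late cells in 10 lineages and the mid cells in 7, and the lineage mean of ln(TPM + 1) was the replicate. Late lineages are named L1 to L10 and mid lineages M1 to M7 in order of mean hours since division, from 7.55 h in L1 to 12.8 h in L10 and from 4.43 h in M1 to 6.33 h in M7. No cell kept fell between 6.78 h, the latest mid cell, and 7.53 h, the earliest late cell. The earliest mid cell was at 4.38 h and the latest cell before it at 3.94 h. The founders of M1 and M4 also gave early cells, which enter the early levels, so that the early and mid lineages are not fully separate. Cells of 8 of the 10 late lineages had no cousin labels, whereas those of 0 of the 7 mid lineages lacked them, so that lineage structure and time since division cannot be fully told apart. A late lineage without cousin labels may be part of a larger one, so 10 is the highest possible number of separate late lineages, and with fewer the standard errors and p values would be too small. L6 and L10 are 1 kept cell each, and their values are those of that cell. Nothing in the labels names separate cultures, and the p values measure the spread between lineages only.

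A dividing cell passes from G1, in which origins of replication are licensed, through S phase, in which DNA and histones are made together, to G2 and mitosis. Genes for licensing and DNA synthesis are driven by E2F factors at the G1/S boundary, replication-dependent histone mRNAs accumulate during S phase, and the genes of the mitotic kinases and the spindle are transcribed mainly in G2 through promoter elements that include the cell cycle homology region (CHR). The CDK inhibitor p21, encoded by Cdkn1a, is a transcriptional target of p53 and restrains entry into S phase. The time since division is a clock for an individual cell, not a cell cycle phase.

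Late and mid lineages did not differ detectably in detected genes or in Rn45s share, the measures of library quality compared. Detected genes averaged 7938 ± 2005 in late and 7936 ± 1631 in mid lineages (SD, n = 10 and 7, exact permutation test, 2-sided, p = 0.999), and Rn45s, the precursor of ribosomal RNA, took 25.5% ± 10.8 and 20.5% ± 3.38 of the TPM (exact permutation test, 2-sided, p = 0.277). The TPM keep no read depth, so no counting interval can be given. The reads per library listed by the study entered an alternative fit only and were not compared between the groups. L5 stood apart, with 3826 detected genes and 53.4% Rn45s, and 1 of its 2 cells held 79.4% Rn45s. L4 was at the other end, with the most detected genes (10428.5) and the lowest Rn45s share (12.5%) of all lineages. The late cell with the fewest genes, in L2, had 1604, and M1 had 4639 against 7583 to 9948 in the other mid lineages. Results are therefore also given without these 5 cells (both cells of L5, that cell of L2 and both cells of M1), a choice made after seeing the data. The choice does not follow detected genes alone. Another L2 cell with 2742 genes stayed in, while the M1 cells left out had 3186 and 6092. The summed TPM of 12 B-lineage markers was 763 to 3863 in late and 540.5 to 5269 in mid cells, with Cd79a, part of the B-cell receptor complex, above 0 in 21 of 22 and 22 of 22 cells. Of the 12, 9 were above 0 in at least 17 late and 20 mid cells, whereas Rag1, Rag2 and Ms4a1 were above 0 in 3, 2 and 1 late and in 7, 5 and 0 mid cells. The summed TPM of 15 T-cell markers was 0 to 193 in late and 6.86 to 76 in mid cells. Of these, Cd3e, Cd3g, Cd5, Gzmb and Prf1 were at 0 in all 44 cells, while Cd28 was above 0 in 19 late and 21 mid cells, Thy1 in 10 and 11, and Il2ra in 9 and 12. The other 7 were above 0 in 1 to 6 late and 0 to 10 mid cells.

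Across 10523 genes, the fit called 0 genes higher and 0 genes lower in late lineages (limma with an intensity trend, Benjamini-Hochberg adjusted p under 0.05), 0% of the genes tested. The lowest adjusted p was 0.9997. At an unadjusted p under 0.05, 107 genes (1.02%) were higher and 215 (2.04%) were lower, 322 in all, fewer than 5 in 100 of the genes tested. The median difference of all genes, late minus mid, was -0.02 on the ln scale, and 52.4% of the differences were below 0. The median standard error of a gene was 0.41 on the ln scale. The fit thus called no gene, which does not show that none changed. In simulated data with the same numbers of lineages, it called 5% of genes changed by 1 on the ln scale and 77.5% of those changed by 2. There 200 genes changed at once, all with a mean level over 2, and normal noise was drawn separately for each gene. The measured values hold zeros and lineages that stood apart in many genes, so these shares need not hold for them. The levels below are given as measured, with their unadjusted p from the same fit. Exact permutation p values of single genes use the same lineage means and are not adjusted for the choice of genes, so they are not separate evidence. Every gene named below had an adjusted p at or above that lowest value.

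Promoter windows are shown for 5 genes of the groups compared, 3 replication genes, 1 histone gene and 1 mitotic gene, chosen because they hold the letters searched. Cdc6 and Hist1h3g had the lowest unadjusted p of all genes, whereas those of Mcm6 and Cdc20 were above 0.05. Each is the 250 bases before the RefSeq transcript start (GRCm38.p6), 5′ to 3′ on the strand of the gene. The GENCODE annotation places some starts elsewhere. By it the Cdc6 gene starts at 98907801, so that its whole window lies inside the gene. The Hells gene starts at 38930915, inside its window, and the Cdc20 window also overlaps the gene at its end. Capitals mark TTTCGCGC, TTTGGCGC, TTTCCCGC or TTTGCCGC on either strand (E2F type) in Cdc6, Hells and Mcm6, CCAAT in Hist1h3g, and TTTGAA (the CHR) in Cdc20. In Mcm6 the longer run of capitals is a pair of overlapping E2F-type matches on opposite strands. The windows are chr11:98907901-98908150 on the plus strand for Cdc6, chr19:38930740-38930989 on the plus strand for Hells, chr1:128359706-128359955 on the minus strand for Mcm6, chr13:23535168-23535417 on the plus strand for Hist1h3g (H3c8 in RefSeq) and chr4:118437344-118437593 on the minus strand for Cdc20.
Cdc6: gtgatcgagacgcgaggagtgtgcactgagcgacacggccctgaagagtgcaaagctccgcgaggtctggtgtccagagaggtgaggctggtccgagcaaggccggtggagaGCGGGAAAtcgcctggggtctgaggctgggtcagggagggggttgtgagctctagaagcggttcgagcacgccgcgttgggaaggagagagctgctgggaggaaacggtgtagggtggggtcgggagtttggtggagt
Hells: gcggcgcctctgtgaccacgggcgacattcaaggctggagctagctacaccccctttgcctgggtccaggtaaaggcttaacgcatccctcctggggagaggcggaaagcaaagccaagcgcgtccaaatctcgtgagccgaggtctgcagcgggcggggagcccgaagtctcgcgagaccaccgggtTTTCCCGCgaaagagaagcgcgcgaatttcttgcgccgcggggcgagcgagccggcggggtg
Mcm6: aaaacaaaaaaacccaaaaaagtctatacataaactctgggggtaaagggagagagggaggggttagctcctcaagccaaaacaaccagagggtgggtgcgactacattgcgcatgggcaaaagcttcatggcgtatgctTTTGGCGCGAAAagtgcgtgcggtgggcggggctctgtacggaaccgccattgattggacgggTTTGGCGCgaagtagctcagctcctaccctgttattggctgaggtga
Hist1h3g: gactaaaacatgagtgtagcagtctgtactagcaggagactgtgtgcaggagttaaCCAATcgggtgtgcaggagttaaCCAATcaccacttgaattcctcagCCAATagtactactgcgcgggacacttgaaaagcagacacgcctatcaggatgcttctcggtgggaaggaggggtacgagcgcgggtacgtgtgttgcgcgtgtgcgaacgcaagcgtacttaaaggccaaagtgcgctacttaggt
Cdc20: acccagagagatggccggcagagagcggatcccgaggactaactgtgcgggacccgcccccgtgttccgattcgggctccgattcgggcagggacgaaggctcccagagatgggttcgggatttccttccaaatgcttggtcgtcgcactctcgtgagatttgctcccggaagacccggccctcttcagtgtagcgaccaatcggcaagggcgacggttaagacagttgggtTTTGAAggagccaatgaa

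In windows of 300 bases, 50 of them past the start, an E2F-type match was present for 25 of the 59 genes of both replication lists that had a window (42.4%, of 75 genes tested) and for 6.52% of 92 genes of the 4 mitotic lists. Over all 27025 gene symbols with a window the share was 2.6%. The CHR letters were present for 52.2% of the mitotic genes, 18.6% of the replication genes and 20.2% of all symbols. CCAAT on either strand was present for 67.4%, 57.6% and 41.1% of the same sets, and the Mcm6 and Cdc20 windows also hold it, unmarked. The windows of Ung and Pcna held no E2F-type letters and that of Ccnb1 no CHR letters. A match is a run of letters, not a measured site.

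Genes that license origins and open S phase averaged lower levels in late lineages. Of 27 licensing and G1/S genes tested, 25 had a difference below 0, with a median of -0.81 on the ln scale, and 7 had an unadjusted p under 0.05 on that side, 25.9% against 2.04% of all genes. Without the 5 cells that stood apart, 24 of the 27 were below 0 and the median was -0.67, beside -0.02 for all genes. Without the 3 late ones of these cells alone (in L2 and L5) it was -0.51, beside 0.13 for all genes. In late lineages with cousin labels (L2 and L3) the median was -1.09, beside -0.33 for all genes, and in those without it was -0.73, beside 0.06.

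Cdc6, which loads the MCM helicase onto origins, had the lowest unadjusted p of all genes (chromosome 11, 98907801 to 98923940, GRCm38). Its lineage mean of ln(TPM + 1) was 0 at the lowest, 1.11 at the median and 3.23 at the highest in late lineages, and 1.86, 3.22 and 4.0 in mid lineages. Of the 10 late lineages, 8 were below every mid lineage, and only L4 (9.33 h) was above the mid median. The difference was -2.07 on the ln scale (SE 0.48, unadjusted p = 0.000198), with an unadjusted exact permutation p over lineages of 0.00149 (2-sided, 19448 arrangements). Cdc6 was above 0 TPM in 9 of 22 late and 21 of 22 mid cells, at a median of 0 and 25 TPM per cell. The early lineages averaged 2.51 ± 1.31 (SD, n = 11).

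Mcm6, a subunit of the MCM helicase with E2F-type matches in its promoter as shown, differed less. It averaged 4.35 ± 1.03 in late and 5.10 ± 0.23 in mid lineages (SD), a difference of -0.74 on the ln scale (SE 0.38, unadjusted p = 0.0634), which was -0.34 without the 5 cells. Mcm3, another MCM subunit (named after its values were seen), had a median of 4.16 in late and 5.28 in mid lineages, and 8 of 10 late lineages lay below every mid one (difference -1.12, SE 0.37, unadjusted p = 0.00575). Without the 5 cells its difference was -0.69.

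The E-type cyclins, partners of CDK2 at the G1/S boundary, had lower means in late lineages too. Ccne2 ranged from 0 to 2.69 with a median of 1.63 in late lineages and from 0.79 to 3.95 with a median of 3.27 in mid lineages, so that the groups overlapped, while all 10 late lineages were below the mid median (difference -1.49, SE 0.50, unadjusted p = 0.00597). Ccne1 averaged 2.91 ± 1.05 and 3.63 ± 0.55 (SD, difference -0.72, SE 0.44, unadjusted p = 0.116). Ccnd3, a G1 cyclin, averaged 5.64 ± 0.72 and 5.97 ± 0.30 (SD).

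The genes of the replication fork and of nucleotide supply followed the same direction. Of 48 tested, 44 were below 0, the median difference was -0.76 on the ln scale, and 10 had an unadjusted p under 0.05 on the lower side (20.8% against 2.04% of all genes). The median was -0.47 without the 5 cells, with 43 of 48 below 0, and -0.41 without the 3 late ones alone, with 41 below 0. Ung, the uracil-DNA glycosylase that clears uracil from new DNA, was at 0, 2.13 and 3.97 (lowest, median, highest) in late lineages and at 3.12, 4.13 and 4.93 in mid lineages. L5, L7 and L10 had no Ung in any cell, and 7 of 10 late lineages lay below every mid lineage (difference -2.16, SE 0.56, unadjusted p = 0.000664, exact permutation p = 0.00432). All 22 mid cells had Ung above 0 TPM, at a median of 63.8 TPM, against 14 of 22 late cells at a median of 11.9 TPM. Pcna, the sliding clamp of DNA polymerase, was high in nearly all lineages, at 2.28, 5.66 and 6.13 in late and 5.84, 6.17 and 6.65 in mid lineages. Its lowest value was that of L5, and the difference of -0.82 (SE 0.38, unadjusted p = 0.0413) was -0.39 without the 5 cells.

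A pair of chromatin genes of S phase, named after their values were seen, stood near Ung. Hells, a remodelling helicase needed for DNA methylation in lymphoid cells, had a median of 1.21 in late and 3.09 in mid lineages and was at 0 in L5, L6 and L10 (difference -1.73, SE 0.49, unadjusted p = 0.00146). Uhrf1, which brings the maintenance methyltransferase to newly copied DNA, had a median of 3.42 in late and 4.81 in mid lineages and was at 0 in L5 and L6 (difference -1.84, SE 0.57, unadjusted p = 0.00342). Without the 5 cells the differences were -1.69 and -1.38.

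**Figure D1:**
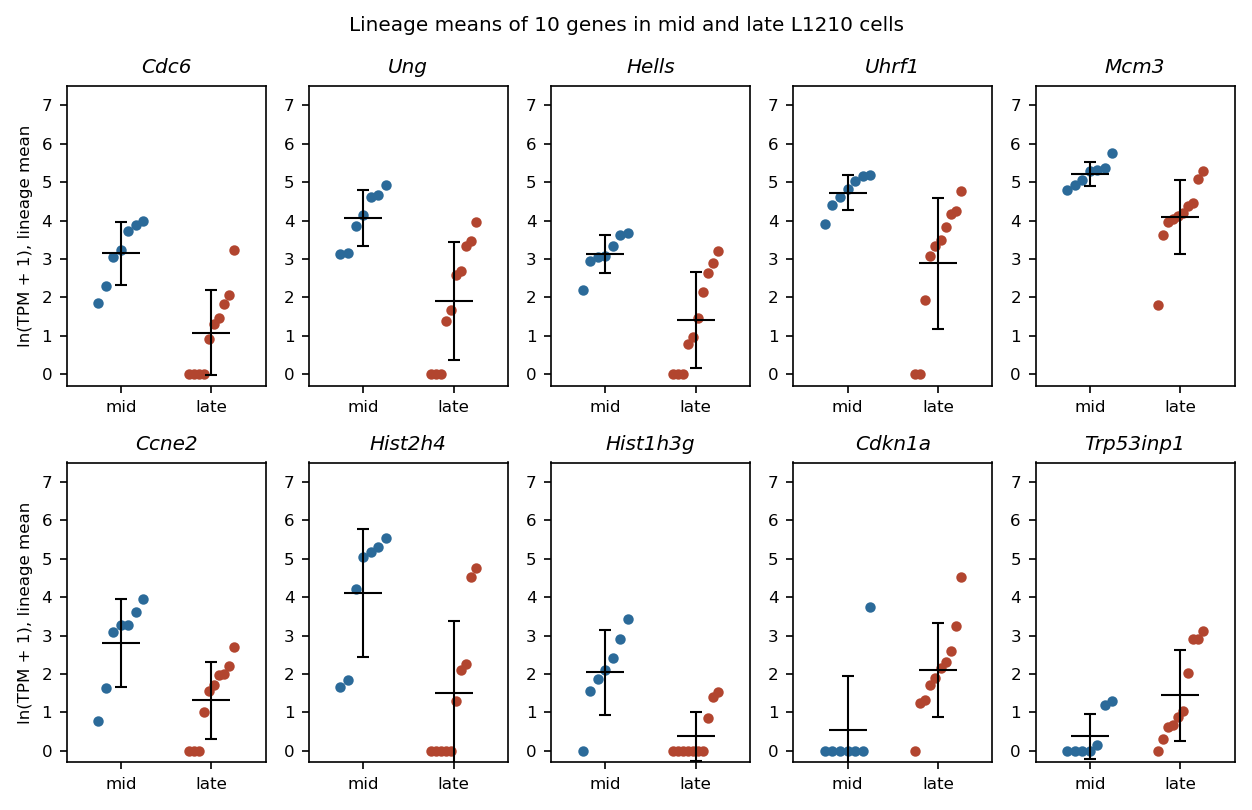
Lineage means of ln(TPM + 1) for 10 genes in 7 mid lineages (blue) and 10 late lineages (red). The horizontal bar is the group mean and the whisker the SD. Cdc6, Ung and Mcm3 of most late lineages lie under the mid range, while Cdkn1a is at 0 in 6 of 7 mid lineages and above 0 in 9 of 10 late ones.

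Replication-dependent histone genes had the most members past an unadjusted p of 0.05. Of 47 tested, 42 were below 0 in late lineages, the median difference was -0.79 on the ln scale, and 20 had an unadjusted p under 0.05 on the lower side (42.6% against 2.04% of all genes), with 0 on the higher side. The median was -0.85 without the 5 cells and -0.72 without the 3 late ones alone. These genes are near-identical copies whose reads can be split between members, so the members are not separate measurements, and their mature mRNAs mostly lack the poly(A) tail that Smart-Seq2 primes on, so the levels cover only the fraction captured.

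Hist2h4, a gene for histone H4, was at 0, 0.64 and 4.77 (lowest, median, highest) in late lineages and at 1.67, 5.03 and 5.53 in mid lineages. L5, L6, L8, L9 and L10, all past 10 h, had none, whereas L1, L2, L4 and L7 were inside the mid range. The difference was -2.62 (SE 0.73, unadjusted p = 0.0014, exact permutation p = 0.0124), and 8 of 22 late cells against 18 of 22 mid cells were above 0 TPM. Hist1h3g, a gene for histone H3, was above 0 in 3 of 10 late lineages (L1, L2 and L3, all before 9 h) and in 6 of 7 mid lineages (difference -1.66, SE 0.40, unadjusted p = 0.00027, exact permutation p = 0.00165). In early lineages both were low, at means of 1.40 ± 1.79 and 0.70 ± 0.96 (SD, n = 11).

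The mean level over the histone list was 1.29 ± 0.73 in late, 2.12 ± 0.43 in mid and 1.24 ± 0.83 in early lineages (SD). Among the late lineages it was 2.75 in L4 (9.33 h), 2.08 in L1 (7.55 h) and 1.64 in L7 (11.6 h), and between 0.69 and 0.98 in L6, L8, L9 and L10. L4 was above every mid lineage, whose highest value was 2.61.

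**Figure D2:**
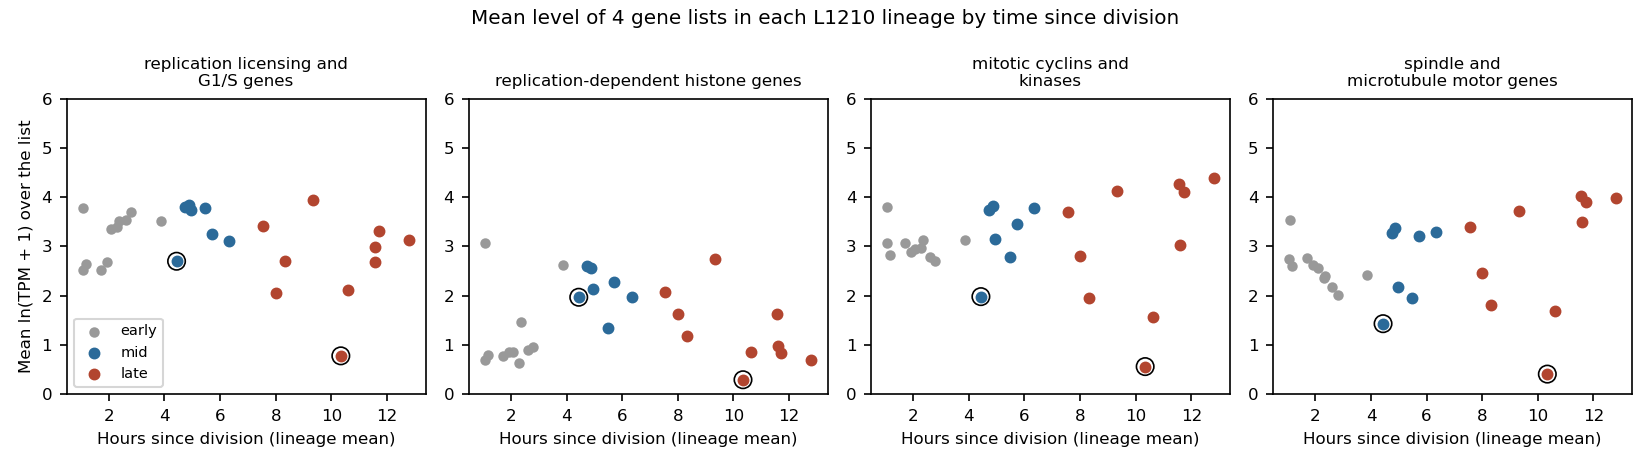
Mean ln(TPM + 1) over 4 gene lists against mean hours since division for early (grey), mid (blue) and late (red) lineages. Circles mark L5 and M1, which stood apart in detected genes. Histone levels of the 4 late lineages with the longest intervals lie between 0.69 and 1.64, while their mitotic cyclin and kinase levels lie between 3.04 and 4.39.

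Mitotic genes varied widely among late lineages, and the groups overlapped. Of 22 mitotic cyclin and kinase genes, 14 were below 0, 0 had an unadjusted p under 0.05 in either direction, and the median difference was -0.20 on the ln scale, -0.01 without the 5 cells and 0.18 without the 3 late ones alone, so that its sign depended on those cells. The median was -0.74 for late lineages with cousin labels and -0.10 for those without, beside -0.33 and 0.06 for all genes. The mean level over this list ranged from 0.56 to 4.39 in late and from 1.98 to 3.81 in mid lineages. L4, L7, L9 and L10 exceeded every mid lineage, at 4.13, 4.27, 4.10 and 4.39, while L3 (8.33 h), L5 (10.3 h) and L6 (10.6 h) were below every mid lineage, at 1.95, 0.56 and 1.56. L3 and L6 had 7832 and 9605 detected genes, within the range of the other lineages.

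Plk1, the polo-like kinase of mitotic entry and spindle assembly, showed this spread most plainly. It was above 0 TPM in 15 of 22 late and 20 of 22 mid cells, at a median of 171 and 106.2 TPM per cell. Its lineage mean was 0 in L5, 0.46 in L3, 2.76 in L2 and 3.08 in L6, and between 5.06 and 5.75 in L1, L4 and L7 to L10, where the mid lineages ranged from 1.97 to 5.38. The group means were 3.92 ± 2.22 and 3.90 ± 1.37 (SD), a difference of 0.01 (SE 0.76, unadjusted p = 0.985), and its sign changed with several settings. Ccnb1 (cyclin B1), Ccnb2 (cyclin B2) and Cdk1, which form the mitotic kinase, and Ccna2 (cyclin A2) had differences of -0.36, -0.35, -0.80 and -0.88 on the ln scale with standard errors of 0.63, 0.56, 0.66 and 0.69. Without the 5 cells that of Ccnb1 was 0.03. Cyclin B1 lineage means in L7, L9 and L10 were 6.22, 6.09 and 6.02, above the highest mid value of 5.90.

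Cdc20, the activator of the anaphase promoting complex, had 5 late lineages (L4 and L7 to L10, at 6.03 to 6.53) above every mid lineage, of which the highest was 5.72, and 3 below every mid lineage (L3, L5 and L6, at 3.22, 2.10 and 4.50). The group difference was -0.16 (SE 0.49, unadjusted p = 0.747) and 0.23 without the 5 cells. Aurka (aurora kinase A), Top2a (the topoisomerase that untangles replicated DNA) and Kpna2 (importin alpha) differed by 0.29, -0.54 and -0.08 with standard errors of 0.65, 0.62 and 0.43.

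Members of the other mitotic lists lay on both sides of 0. Of 35 spindle and microtubule motor genes, 24 were above 0 with a median of 0.17, and 0.32 without the 5 cells. Of 37 kinetochore and spindle checkpoint genes, 21 were below 0 with a median of -0.05, and 0.06 without the 5 cells. Of 20 genes of the anaphase promoting complex and its partners, 13 were below 0 with a median of -0.09. Of 23 condensin and chromosome structure genes, 15 were below 0 with a median of -0.19. For late lineages with cousin labels the medians of these lists were -0.61, -0.82, -0.59 and -0.68, beside -0.33 for all genes. For late lineages without them they were 0.39, 0.10, -0.03 and -0.10, beside 0.06 for all genes. Without the 3 late cells alone the medians of these lists were 0.53, 0.33, 0.28 and 0.06, beside 0.13 for all genes. In that setting 31 of the 35 spindle genes were above 0 and 5 of them had an unadjusted p under 0.05 on the higher side, where 3.68% of all genes did. Over the 115 members of these lists, 8 (6.96%) were past it on the higher and 3 (2.61%) on the lower side there. Without the 5 cells, 2 (1.74%) were past it on either side, where 209 of all 10523 genes were higher and 326 lower. With all cells, 4 of the 115 members of these lists (3.48%, against 2.04% of all genes) had an unadjusted p under 0.05 on the lower side and 0 on the higher side, a share near that of all genes. These 4 were named after their values were seen. Cenpp and Spc24, both kinetochore components, differed by -1.51 (SE 0.48) and -1.05 (SE 0.48), Anapc13, a subunit of the anaphase promoting complex, by -1.57 (SE 0.56), and Cdca5 (sororin), which holds sister chromatids together from S phase, by -1.21 (SE 0.50).

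**Figure D3:**
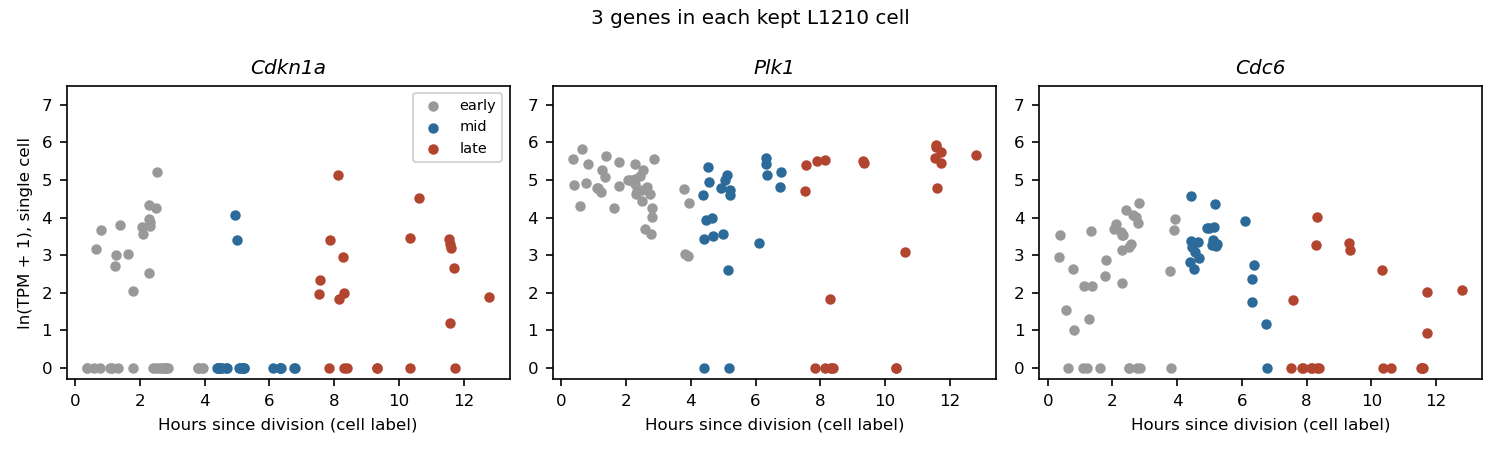
ln(TPM + 1) of Cdkn1a, Plk1 and Cdc6 in each of 37 early (grey), 22 mid (blue) and 22 late (red) cells against the hours since division on the label. Cdkn1a is above 0 in 2 mid and 15 late cells, and Plk1 in the late cells is either near 0 or at the top of the range with few values between.

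Cdkn1a was detected in more late than mid lineages. It was above 0 TPM in 15 of 22 late cells, spread over 9 of 10 lineages, and in 2 of 22 mid cells, both of M4. Its lineage mean in late cells was 0 at the lowest (L4), 2.02 at the median and 4.51 at the highest (L6), against 0 in 6 mid lineages and 3.74 in M4. The difference was 1.57 on the ln scale (SE 0.55, unadjusted p = 0.00887, exact permutation p = 0.0301), and it was 1.55 without the 5 cells, 1.38 for late lineages with cousin labels and 1.61 for those without. The share of cells with Cdkn1a above 0 averaged 72.5% over late and 14.3% over mid lineages (exact permutation test, 2-sided, unadjusted p = 0.00931). Early cells also had it, in 16 of 37 cells and 8 of 11 lineages.

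Late lineages with the highest Cdkn1a did not share 1 state of the mitotic genes. L6, which is 1 cell, at a Cdkn1a of 4.51, had a Plk1 of 3.08 and no Ccna2, while L8, at 3.24, had a Plk1 of 5.33 and a Ccna2 of 4.73. L4, the late lineage without Cdkn1a, had a Plk1 of 5.47, a Cdc6 of 3.23 and the highest histone level. L4 also had the most detected genes and the lowest Rn45s share of all lineages, and the part of library quality in its levels was not tested.

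Most other p53 targets had a difference above 0. Of 17 tested beside Cdkn1a, 13 were above 0 with a median of 0.17 on the ln scale, and 1 (5.88% against 1.02% of all genes) had an unadjusted p under 0.05 on the higher side. Without the 5 cells the median was 0.23, beside -0.02 for all genes, with 16 above 0. In that setting 3 (17.6%) had an unadjusted p under 0.05 on the higher side, where 209 of all 10523 genes did. Without the 3 late ones alone the median was 0.35, beside 0.13 for all genes. There 17 were above 0 and 5 (29.4% against 3.68% of all genes) had an unadjusted p under 0.05. The gene past it with all cells was Trp53inp1, a p53-induced nuclear protein named after its values were seen, with a median of 0.96 in late and 0 in mid lineages (difference 1.08, SE 0.44, unadjusted p = 0.0201). Trp53inp1 was above 0 in 15 of 22 late and 3 of 22 mid cells. Early cells also had it, in 22 of 37 cells and 10 of 11 lineages. Ccng1 (cyclin G1), a p53 target named after its values were seen, was above 0 in 21 of 22 cells of either group and averaged 4.46 ± 0.85 and 3.62 ± 0.84 (SD, difference 0.84, SE 0.41, unadjusted p = 0.0501). Cdkn1b, which encodes the CDK inhibitor p27, averaged 1.19 ± 0.75 in late and 0.66 ± 0.50 in mid lineages (SD, difference 0.53, SE 0.34, unadjusted p = 0.128).

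Growth-related lists had medians below 0 of smaller size. Of 40 ribosome biogenesis genes, 35 were below 0 with a median of -0.43 on the ln scale, and -0.26 without the 5 cells. Srm, the spermidine synthase gene in that list (named after its values were seen), had a median of 6.05 in late and 6.82 in mid lineages (difference -0.95, SE 0.37, unadjusted p = 0.016). Cytosolic ribosomal protein genes were below 0 in 77 of 84 with a median of -0.15, nuclear respiratory chain genes in 66 of 81 with a median of -0.35, and without the 5 cells these medians were -0.09 and -0.13. Without the 3 late ones alone the medians of the ribosome biogenesis, ribosomal protein and respiratory chain lists were -0.15, -0.06 and -0.03. Polyubiquitin and heat shock genes were below 0 in 14 of 19 with a median of -0.32 (-0.15 without the 5 cells), among them the mitochondrial chaperonin genes Hspd1 and Hspe1 (named after their values were seen), at -0.56 (SE 0.24) and -0.70 (SE 0.34). Myc, a growth regulator named after its values were seen, averaged 4.97 ± 0.86 and 5.71 ± 0.41 (SD, difference -0.74, SE 0.34, unadjusted p = 0.038).

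Ubb, Fth1, Ftl1 and Rn45s, each above 0 in every late and mid cell, had small differences. Hspd1, described above, was also above 0 in all of these cells and differed by -0.56. Ubb, a polyubiquitin gene, differed by 0.08 (SE 0.15), and Fth1 and Ftl1, the ferritin heavy and light chains, by 0.17 (SE 0.26) and -0.04 (SE 0.23). Rn45s differed by 0.15 (SE 0.10).

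**Figure D4:**
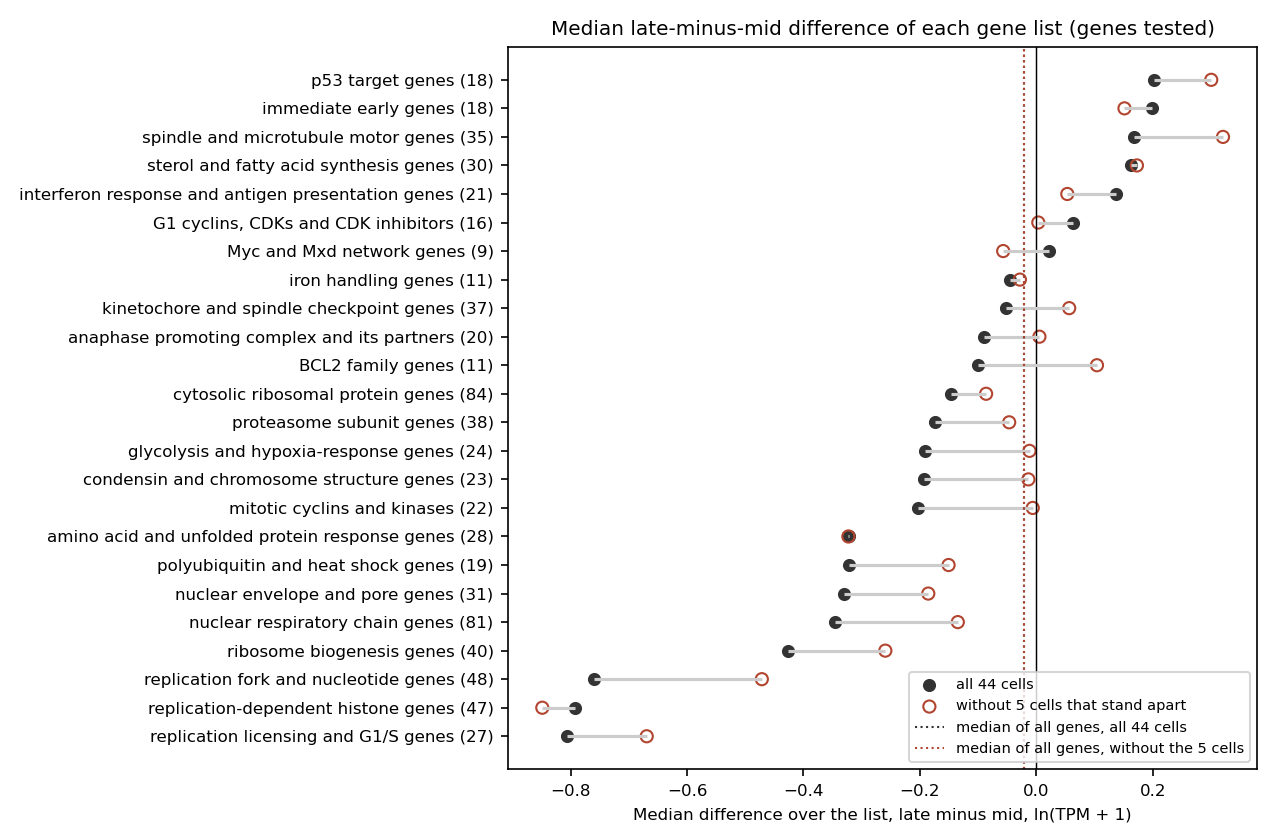
Median late-minus-mid difference on the ln scale for each of 24 gene lists, with all 44 cells (filled) and without the 5 cells that stood apart (open). Numbers in parentheses are genes tested, and the dotted lines mark the median of all genes in either set, both -0.02. The 3 lists of S phase genes lie at -0.76 to -0.81 with all cells and stay the lowest without the 5 cells.

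The genes of lowest unadjusted p that were higher in late lineages shared no list. Themis2, a signaling adaptor of B cells and macrophages, had a median of 3.31 in late and 1.94 in mid lineages, and 7 of 10 late lineages lay above every mid one (difference 1.53, SE 0.46, unadjusted p = 0.0024). Klf10, a Krüppel-like transcription factor induced by TGF-beta, had a median of 2.42 and 0.46 (difference 1.58, SE 0.47, unadjusted p = 0.00244). Mtrf1, a mitochondrial translation release factor, differed by 1.39 (SE 0.43) and Dennd2c, a DENN domain gene, by 0.98 (SE 0.32). Gm5643, a processed pseudogene whose reads can come from its parent gene, was above 0 in 11 late and 0 mid cells (difference 1.45, SE 0.44), and 1700086O06Rik, a long noncoding RNA gene, differed by 1.06 (SE 0.34). On the lower side, Zfp940, a zinc finger gene, and Sptbn4, a beta spectrin gene, completed the 6 of lowest p beside Cdc6, Hist1h3g, Ung and Hist2h4, at -1.09 (SE 0.29) and -0.77 (SE 0.21).

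Within the late group, the change per hour since division was fitted over the 10 lineages. The fit called 0 genes (limma, adjusted p under 0.05, 0% of 10523), the lowest adjusted p was 1.00, and at an unadjusted p under 0.05, 151 genes (1.43%) had a slope above 0 and 47 (0.447%) below. The median slope of all genes was 0.06 per hour on the ln scale. Histone genes had a median slope of -0.19 per hour. Among them, Hist1h3b, named after its values were seen, had -0.92 per hour (SE 0.25), with 4.84, 4.72 and 5.36 in L1, L2 and L4 and 0 to 1.11 in the other late lineages. Hist2h4 had -0.70 per hour (SE 0.23) and Hist1h3g -0.30 (SE 0.08). Cdc6 and Mcm3 had slopes of -0.02 (SE 0.19) and -0.12 (SE 0.17) per hour. The 4 mitotic lists had median slopes of 0.20, 0.22, 0.21 and 0.12 per hour.

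Sister cells allowed the spread inside a lineage to be described. Over 10523 genes, the 10 late sister pairs differed by a mean of 0.41 to 2.13 on the ln scale per gene with a median of 1.07, and the 10 mid pairs by 0.44 to 1.5 with a median of 0.82. The pair closest together was L4, whose cells differed by 25 detected genes, and the pair farthest apart was the one in L2 whose cells differed by 6627. Over 114 entries of the 4 mitotic lists the late pairs ranged from 0.26 to 3.28 and the mid pairs from 0.30 to 1.98. Detected genes moved with these distances, and their part in them was not tested.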

How the data were processed

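The authors deposited 1 table of TPM values, estimated with RSEM 1.2.3 for mouse genes of the mm10 build (per the labels and their processing notes), not log-transformed and summing to 1000000 per library, for 23420 gene names. The deposited TPM keep no depth, so a library rich in Rn45s has lower values for all other genes. The 27 names that spreadsheet software had turned into dates were left out. Genes over 1 on the ln(TPM + 1) scale (pseudocount 1) in more than 10% of the 81 L1210 cells kept were tested. Lineage means were fitted with limma 3.58.1 (R 4.3.3, 2-sided, trend) and tested on simulated data with changed genes. Single values were compared with exact permutation tests over lineages. Python 3.11.15, numpy 2.4.6, pandas 2.3.3 and matplotlib 3.10.9 were used. Coordinates are from the GENCODE annotation of GRCm38 and promoter windows from RefSeq.

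The rule for named genes took the genes of lowest p, up to 6 in each direction where fewer than 12 were called, called members of each list, and a list of fixed genes, of which 1 is not reported here. Others are said to be named after their values were seen. Groups, lists and members were chosen with earlier results of these data known. No library was dropped beyond the rule in the main fit. Alternatives covered a pseudocount of 0.1 or 10 TPM, genes filtered at 50% of cells or not at all, at least 2000 or 4000 detected genes, time limits, lineage structure, covariates (detected genes, and the reads per library listed by the study), Rn45s, quantile normalization, weights, cells in place of lineages, and each lineage left out.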

Additional observations from a re-analysis of the deposited data

Results flagged for a closer look

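A lineage was singled out where its gap to the nearest other lineage of its group exceeded Dixon's 95% critical value. This held in 31 of 154 groups of values examined, where chance gives about 1 in 20, and the values share lineages and are not independent. L5 accounted for 15 of them and M1 for 11, the lineages with the highest Rn45s share in the late group and the fewest detected genes in the mid group, and the part of library quality in these values was not tested.

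L5 took 53.4% of its TPM as Rn45s. On the ln(TPM + 1) scale it was lowest of the late lineages in Ccnb1 (0), Kpna2 (2.48), Mcm6 (1.85), Pcna (2.28), Ftl1 (6.48), Mcm3 (1.80), Spc24 (0) and Hspe1 (3.24). Its mean level was also apart for the anaphase promoting complex and its partners (1.33), G1 cyclins, CDKs and CDK inhibitors (1.52), cytosolic ribosomal protein genes (5.95), glycolysis genes (2.73), nuclear respiratory chain genes (2.85) and proteasome subunit genes (3.74).

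M1 was apart in Cdk1 (2.16) and in the mean levels of the anaphase promoting complex (2.77), G1 cyclins and CDKs (1.64), amino acid and unfolded protein response genes (2.94), glycolysis genes (3.77), nuclear respiratory chain genes (4.59), proteasome subunit genes (4.70), iron handling genes (3.01), nuclear envelope and pore genes (3.096), interferon response genes (1.56) and B-lineage markers (2.36).

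The remaining 5 were single genes in single lineages. Cdkn1a was at 3.74 in M4 and at 0 in every other mid lineage. Ccnb2 was at 0 in L6, Hist1h2bb, a gene for histone H2B, at 1.83 in L7, Myc at 2.89 in L2 and Sptbn4 at 0.56 in L4.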

How the results depend on the processing

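Of 20 alternatives and 17 fits without 1 lineage, 1 gave calls for late minus mid. With the 2 late lineages with cousin labels alone, an alternative added after seeing the data, 4 genes were called lower (Rpl34-ps1, Hnrnpa1, Oaz1 and Uqcr11, named after their values were seen), with 657 genes lower and 53 higher at an unadjusted p under 0.05. One of these lineages, L2, holds the late cell with the fewest genes. No gene was called for the change per hour under 4 alternatives and 10 fits without 1 lineage. No paired analysis was possible because the replicate numbers were given in accession order and pair no samples.

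The counts at an unadjusted p under 0.05, 107 higher and 215 lower, moved by over 1.5 times under these settings. Higher genes numbered 351 with at least 4000 detected genes, 220 with late cells from 9.0 h, 213 with late lineages without cousins, 280 with detected genes as a covariate, 223 after quantile normalization, 56 when weighted by cells, 387 without the 3 late cells and 209 without the 5 cells that stood apart. Lower genes numbered 330 with a pseudocount of 10 TPM, 141 with late lineages without cousins, 570 with detected genes as a covariate, 584 when weighted by cells, 465 with cells as samples and lineage as a random block, and 326 without the 5 cells. Leaving out 1 lineage gave 54 to 250 higher (54 without M1, 190 without M3, 215 without L2, 250 without L5) and 129 to 375 lower (129 without M3, 373 without M1, 375 without L4). For the change per hour, lower genes (47) numbered 72 with a pseudocount of 10 TPM, 71 with at least 2000 detected genes and 184 with detected genes as a covariate. Without 1 lineage, 58 to 361 were higher (58 without L2, 69 without L10, 361 without L5) and the most lower genes came without L2. The causes were not tested.

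Of 49 genes named, 9 changed sign under some alternative, with differences on the ln scale as follows. With 10 TPM as pseudocount Cdc20 was 0.024 and Kpna2 0.086, and with 0.1 TPM Plk1 was -0.23. With at least 2000 detected genes Kpna2 was 0.080, and with 4000 Cdc20 was 0.20, Kpna2 0.39 and Ftl1 0.21. With late cells from 9.0 h Cdc20 was 0.11. With late lineages without cousins Cdc20 was 0.14 and Kpna2 0.024, and with cousins only Plk1 was -2.30, Aurka -0.69, Cdkn1b -0.18 and Ftl1 0.33. With reads as a covariate Kpna2 was 0.048 and Ftl1 0.021, without Rn45s Ftl1 was 0.053, and after quantile normalization Cdc20 was 0.042 and Ftl1 0.014. Weighted by cells Plk1 was -0.62, Aurka -0.25 and Ftl1 0.025, and with cells as samples Plk1 was -0.43 and Aurka -0.11. With lineage medians Cdc20 was 0.036, Plk1 -0.16 and Kpna2 0.062. Without the 3 late cells Ccnb1 was 0.23, Cdc20 0.27, Top2a 0.016, Kpna2 0.45, Ccnd3 0.0009 and Ftl1 0.16, and without the 5 cells Ccnb1 was 0.035, Cdc20 0.23, Kpna2 0.40 and Ftl1 0.14. Without 1 lineage the lowest and highest values were -0.56 and 0.15 for Ccnb1, -0.53 and 0.086 for Ccnb2, -0.32 and 0.18 for Cdc20, -0.31 and 0.45 for Plk1, -0.032 and 0.70 for Aurka, -0.21 and 0.28 for Kpna2 and -0.11 and 0.14 for Ftl1. The list medians for licensing, fork and histone genes were below 0 under every setting run.

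The TPM keep no depth, so a value of 0 in 1 cell cannot be given a limit.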

Other observations

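Gene groups outside the cell cycle and growth lists showed small medians. Of 30 sterol and fatty acid synthesis genes, 20 were above 0 in late lineages with a median difference of 0.16 on the ln scale, and 0 had an unadjusted p under 0.05. Of 21 interferon response and antigen presentation genes, 15 were above 0 with a median of 0.14. Among them Stat2, the interferon signal transducer, named after its values were seen, had a median of 2.03 in late and 1.41 in mid lineages (difference 0.99, SE 0.44, limma unadjusted p = 0.0342, adjusted p = 0.9997). Its difference was 0.15 for late lineages with cousin labels and 1.19 for those without. Immediate early genes were above 0 in 11 of 18 with a median of 0.20, G1 cyclins, CDKs and CDK inhibitors in 8 of 16 with a median of 0.06, and the Myc and Mxd network in 5 of 9 with a median of 0.02.

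Nuclear envelope and pore genes were below 0 in 23 of 31 with a median of -0.33, amino acid and unfolded protein response genes in 21 of 28 with a median of -0.32, proteasome subunit genes in 29 of 38 with a median of -0.17, glycolysis and hypoxia-response genes in 19 of 24 with a median of -0.19, iron handling genes in 7 of 11 with a median of -0.04 and BCL2 family genes in 8 of 11 with a median of -0.10. Without the 5 cells that stood apart the medians of BCL2 family genes and of the Myc and Mxd network were 0.10 and -0.06, of opposite sign. Without the 3 late ones alone the medians of proteasome, glycolysis, iron handling and BCL2 family genes were 0.02, 0.04, 0.16 and 0.15, also of opposite sign, beside 0.13 for all genes. The B-lineage and T-cell markers tested had medians of -0.07 over 11 genes and 0.01 over 6. Psrc1, a spindle protein gene named after its values were seen, averaged 2.70 ± 1.21 in late and 1.75 ± 1.04 in mid lineages (SD, difference 0.95, SE 0.53, limma unadjusted p = 0.0826).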
